A study of Mus musculus with 21 samples.

Results

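The sterol and fatty acid synthesis genes described here are 29 mouse genes, taken from the 52636 rows of a counts table by their Ensembl identifiers and symbols. They were chosen by pathway and not by a cut on their values, but with earlier results of these data known. Of these, 15 encode enzymes of the sterol pathway, 4 encode regulators, and 10 encode enzymes that make, elongate or desaturate fatty acids. Fdps and Idi1, which encode 2 further enzymes of the pathway, were left out because reads shared with copies of these genes are missing from their counts. They held between 31 and 249 counts per group, summed over the 3 libraries.

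The libraries were made from mouse lung fibroblasts labelled Ly6C+/Sca-1+, stimulated in vitro, with total RNA and a stranded kit. There were 7 groups of 3 libraries. DMSO is the solvent group without cytokine, and CHIR is a group given the agent that the labels name only as CHIR. The other groups all received TGFb1 (transforming growth factor beta 1), a cytokine that drives fibroblasts towards matrix production: TGFb1, TGFb1 + DMSO, TGFb1 + CHIR, TGFb1 + IL1b and TGFb1 + TNF. IL1b (interleukin 1 beta) and TNF (tumour necrosis factor) are inflammatory cytokines. For CHIR and TGFb1 + CHIR the treatment labels name no solvent, and DMSO and TGFb1 + DMSO were taken as their controls. The labels give no dose, time, strain or age, no solvent for the TGFb1, IL1b and TNF groups, and no word on whether the 3 libraries of a group were grown apart or came from several mice. The p-values therefore measure the spread between these libraries, which may be technical.

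Cells make sterols from acetyl-CoA through mevalonate, squalene and lanosterol, and fatty acids from acetyl-CoA through malonyl-CoA. Most of these genes are targets of the sterol regulatory element binding proteins, SREBP-1 (from Srebf1) and SREBP-2 (from Srebf2). These are held in the endoplasmic reticulum by INSIG proteins when sterols are plentiful, and move to the nucleus when sterols run low. SREBP-2 mainly drives sterol synthesis and SREBP-1c mainly drives fatty acid synthesis, and at promoters they act together with NF-Y, which binds CCAAT, and with SP1, which binds GC-rich sites.

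Library totals ran from 19796379 to 29276382 counts, and all 29 genes passed the filter on low counts. Levels are given as CPM (counts scaled to a common library size, with TMM, trimmed mean of M values), and comparisons as log2 fold changes with their standard error and edgeR's adjusted p over 16197 genes, called at 0.05. The summed level of 7 fibroblast markers lay between 22900 and 83500 CPM, led by Col1a1 in every group. Single markers varied: Dcn ran from 2982 CPM in CHIR to 91.8 CPM in TGFb1 + CHIR, Pdgfra from 1485 CPM in DMSO to 76.8 CPM in TGFb1 + TNF, and Lum from 17.9 CPM in CHIR to 0.0243 CPM in TGFb1 + TNF. Transcripts of the sorted surface proteins (Ly6a and Ly6c1) were present at 191 ± 6.50 CPM (SD, n = 3) in DMSO and at 8.53 ± 0.859 CPM in TGFb1 + CHIR. Alveolar epithelial markers summed to at most 0.538 CPM, with Sftpc at 2 counts over all libraries. Adipocyte markers summed to at most 0.974 CPM, which was in CHIR. Of 7 immune markers, which summed to 1.52 to 6.83 CPM, Ptprc had 0 counts, and Csf1r (up to 4.36 CPM, in TGFb1 + IL1b) and Cd68 (up to 2.45 CPM, in TGFb1 + CHIR) were the highest. The sums above are of single libraries, and those that follow are group means. Smooth muscle markers, mainly Cnn1, summed to 45.7 to 212 CPM and mesothelial markers, mainly Wt1, to 9.14 to 27.7 CPM. Endothelial markers summed to 5.47 to 23.9 CPM, highest in TGFb1 + CHIR and led there by Kdr. Mitochondrial transcripts took 0.350% to 1.04% of counts, highest in CHIR. In bulk RNA, fewer cells of a type and less RNA per cell cannot be told apart.

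Reads of some members could be split with other genes. In 50-base windows, 30.4% of Acaca's sequence also occurs in transcripts of other genes (mainly Gm5182), 26.5% of that of Fdft1 (Ctsb and Gm6781), 11.6% of that of Hmgcs1 (mainly Gm48342), 9.87% of that of Tm7sf2 (Vps51) and 6.13% of that of Acss2. Scd1 shares 4.56% and Scd2 3.97%, mainly with each other and with Scd3 and Scd4, and Elovl6 shares 3.98%. The levels of these 8 genes are therefore less certain than those of the other genes, which share 0 to 2.77%, and the sources used here do not give the authors' strand setting.

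The promoter sequences shown are those of 5 sterol enzyme genes on which the response to CHIR turned. Hmgcs1 and Nsdhl fell most with CHIR in TGFb1-treated cells, and Cyp51, Hsd17b7 and Ebp rose. Each sequence is the 250 bases before the RefSeq start site, on the gene's own strand, from the GRCm38.p6 assembly. Capitals mark TCACNCCAC, a sterol regulatory element, and CCAAT, the NF-Y motif, which reads ATTGG on the opposite strand.
Hmgcs1, + strand, chr13:119690101-119690350: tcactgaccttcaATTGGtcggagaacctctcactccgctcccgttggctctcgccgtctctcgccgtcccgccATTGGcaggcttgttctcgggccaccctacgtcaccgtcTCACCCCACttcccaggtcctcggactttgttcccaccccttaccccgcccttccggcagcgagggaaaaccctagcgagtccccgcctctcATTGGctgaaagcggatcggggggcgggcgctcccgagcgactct
Nsdhl, + strand, chrX:72918271-72918520: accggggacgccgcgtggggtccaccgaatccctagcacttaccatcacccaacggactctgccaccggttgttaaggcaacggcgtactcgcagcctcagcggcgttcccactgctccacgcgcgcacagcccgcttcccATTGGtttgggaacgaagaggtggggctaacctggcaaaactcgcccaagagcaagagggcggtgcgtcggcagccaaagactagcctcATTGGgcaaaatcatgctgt
Cyp51, - strand, chr5:4104698-4104947: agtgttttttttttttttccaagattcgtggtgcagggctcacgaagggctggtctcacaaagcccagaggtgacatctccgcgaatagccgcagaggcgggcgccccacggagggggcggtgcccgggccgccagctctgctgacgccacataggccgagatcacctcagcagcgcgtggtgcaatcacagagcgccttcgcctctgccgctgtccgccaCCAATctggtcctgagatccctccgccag
Hsd17b7, - strand, chr1:169969206-169969455: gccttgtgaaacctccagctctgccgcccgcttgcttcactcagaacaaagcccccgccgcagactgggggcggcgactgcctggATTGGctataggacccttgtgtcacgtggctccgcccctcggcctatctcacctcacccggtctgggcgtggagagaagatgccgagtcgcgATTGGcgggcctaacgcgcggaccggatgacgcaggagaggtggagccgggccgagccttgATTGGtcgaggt
Ebp, - strand, chrX:8193513-8193762: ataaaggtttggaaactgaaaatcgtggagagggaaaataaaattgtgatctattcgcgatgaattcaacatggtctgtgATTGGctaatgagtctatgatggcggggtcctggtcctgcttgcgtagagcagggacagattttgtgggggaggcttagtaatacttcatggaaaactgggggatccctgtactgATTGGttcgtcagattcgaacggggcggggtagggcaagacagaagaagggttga

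RefSeq windows matched 23 of the 29 genes. CCAAT, on either strand, was in 18 of the 23 windows (78.3%), against 34.3% of 27017 windows of all genes. It was in 12 of 13 sterol enzyme windows, all 3 of the regulators and 3 of 7 fatty acid gene windows. GGGCGG, an SP1 site, showed the same split, in 12 of 13 sterol enzyme windows and 3 of 7 fatty acid gene windows, and in 73.9% of the 23 windows against 33.0% of all. At least 2 copies of CCAAT were in 9 member windows (39.1%, against 10.5% of all). CACGTG, an E-box, was in 4 windows (17.4%, against 6.02%), and TCACNCCAC only in that of Hmgcs1 (4.35%, against 1.03%). No copies of different motifs overlapped in these windows. The 27017 windows include genes that did not pass the filter on low counts, whereas all 29 members passed it. The shares over the genes tested were not computed. All 5 promoters shown hold CCAAT, so its presence did not separate the 2 that fell from the 3 that rose.

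In the DMSO group, levels per kilobase of exon were highest for Scd2, a stearoyl-CoA desaturase that puts the first double bond into saturated fatty acids, at 191 CPM per kilobase. Fads1, a desaturase of polyunsaturated fatty acids, followed at 122 and Scd1 at 98.5. Among the sterol enzymes Sqle, the squalene epoxidase, was highest at 65.9 CPM per kilobase and Tm7sf2, a sterol C14 reductase, lowest at 1.20. Srebf2 stood at 50.1 and Srebf1 at 8.76 CPM per kilobase, a ratio of 5.73 ± 0.230 (SD, n = 3). The 29 genes together took 0.564% ± 0.00197 of counts in DMSO and 1.08% ± 0.0150 in TGFb1. Scd1 and Scd2 alone accounted for 0.160% in DMSO and 0.559% in TGFb1.

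**Figure D1:**
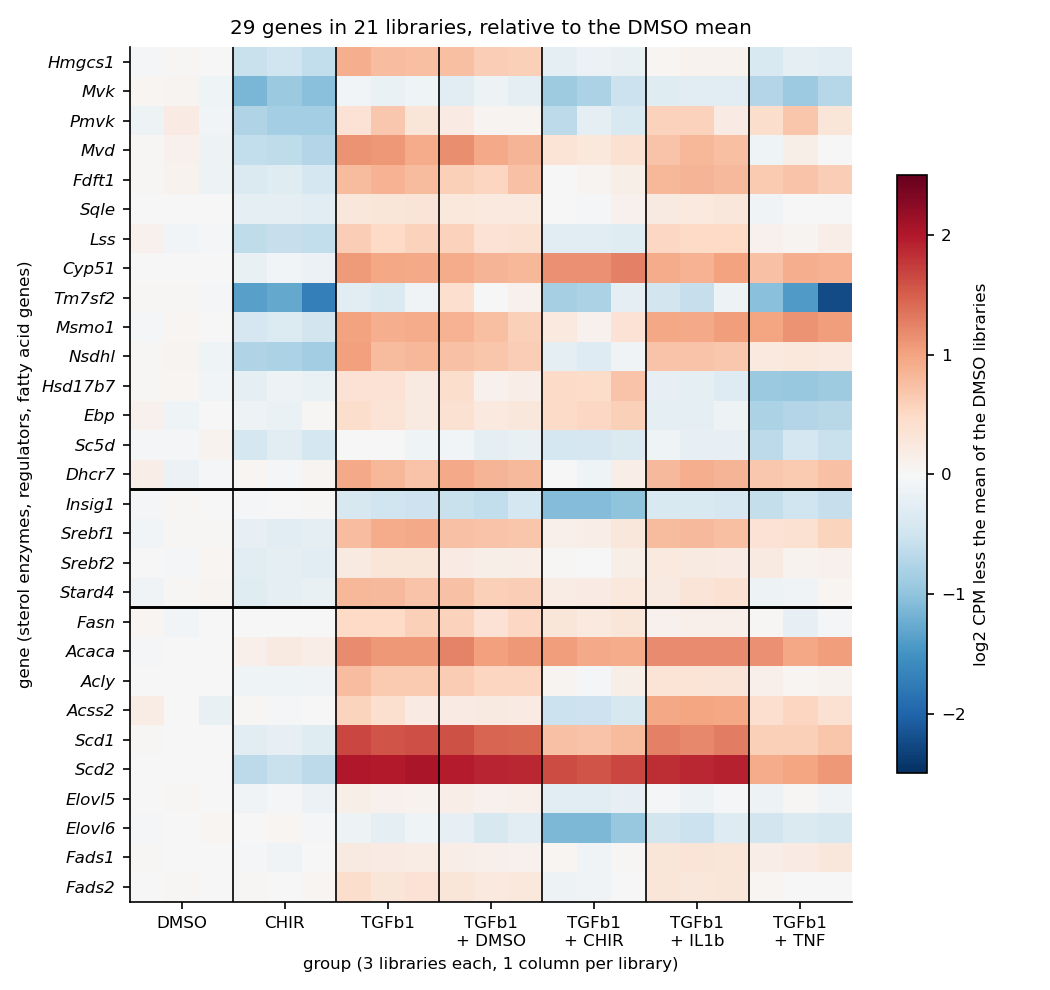
Log2 CPM of each of the 29 genes (rows, in 3 blocks for sterol enzymes, regulators and fatty acid genes) in each of the 21 libraries (columns), less the gene's mean over the DMSO libraries; red is higher and blue lower, on a scale from -2.5 to 2.5. Scd1, Scd2 and Acaca are red in all groups with TGFb1, and the sterol block is mostly blue in CHIR.

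Cells given TGFb1 + DMSO had higher levels of most of these genes than cells given DMSO alone. The genes higher were 23 of 29, with 4 lower and 2 not past the threshold, where 30.7% of all genes tested were called higher and 31.3% lower. The median log2 fold change was 0.43, against -0.02 over all genes. By arm, 11 of 15 sterol enzymes rose and 2 fell, 3 of 4 regulators rose and 1 fell, and 9 of 10 fatty acid genes rose and 1 fell. Of these 9, the rise of Acss2 did not pass with DESeq2, RLE factors, the filter of 1 CPM or only the groups compared, nor without replicate 2 or 3 of DMSO or replicate 1 or 2 of TGFb1 + DMSO (log2 0.127 to 0.203). The summed smooth muscle markers were also higher, at 144 ± 10.8 CPM against 48.9 ± 4.53 CPM in DMSO, through Cnn1 (142 against 46.6 CPM). Des stood at 1.63 against 1.45 CPM, and Myh11 was lower (0.29 against 0.846 CPM). The summed mesothelial markers were higher, at 23.3 ± 2.79 against 13.6 ± 2.15 CPM, through Wt1 (23.3 against 13.2 CPM). Upk3b was lower (0.0114 against 0.406 CPM), and Msln was at 0 CPM in both groups. The part of these markers in the result was not tested.

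The stearoyl-CoA desaturase genes Scd2 and Scd1 rose most. Scd2 stood at 1050, 1036 and 1048 CPM in the DMSO libraries and at 4088, 3916 and 3878 CPM in those of TGFb1 + DMSO. Scd1 stood at 492, 477 and 478 CPM in DMSO and at 1449, 1316 and 1297 CPM in TGFb1 + DMSO. Both genes were thus apart in every library, with 3.79-fold (log2 1.92 ± 0.0387 SE, adjusted p = 5.01e-41) and 2.81-fold (log2 1.49 ± 0.0410, adjusted p = 5.21e-35) higher levels. Acaca, the acetyl-CoA carboxylase that makes malonyl-CoA, went from 36.1 ± 0.535 to 78.8 ± 6.02 CPM (SD, n = 3), a log2 fold change of 1.12 ± 0.0595. Acly, which makes cytosolic acetyl-CoA from citrate, rose by 0.57 ± 0.0420 on the log2 scale, and Fasn, the fatty acid synthase, by 0.49 ± 0.0465. Elovl6, which elongates saturated C16 chains, was the fatty acid gene that fell, by 0.30 ± 0.0620 on the log2 scale, from 66.7, 69.7 and 71.2 CPM to 60.1, 52.2 and 56.7 CPM.

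Among the sterol enzymes, Mvd, which makes isopentenyl pyrophosphate from mevalonate pyrophosphate, rose most, by 0.99 ± 0.0785 on the log2 scale. It stood at 24.2, 25.4 and 21.5 CPM in DMSO and at 52.7, 45.4 and 42.9 CPM in TGFb1 + DMSO. Cyp51, the lanosterol demethylase, followed at 0.87 ± 0.0451, then Dhcr7, the 7-dehydrocholesterol reductase, at 0.87 ± 0.0688 and Msmo1, a sterol C4 methyl oxidase, at 0.74 ± 0.0552. Mvk, the mevalonate kinase, which acts before Pmvk and Mvd in the pathway, went the other way and fell by 0.20 ± 0.0863 (adjusted p = 0.0369). Sc5d, the lathosterol desaturase, fell by 0.16 ± 0.0527 (adjusted p = 0.00620). Leaving out 1 library in turn ended the call of Mvk for replicates 1 and 2 of DMSO and replicates 1 and 3 of TGFb1 + DMSO (log2 -0.185 to -0.168), and that of Sc5d for replicate 3 of DMSO and replicates 2 and 3 of TGFb1 + DMSO (-0.133 to -0.103). Pmvk and Tm7sf2 did not pass, at 0.11 ± 0.131 and 0.19 ± 0.191.

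The regulators did not move together. Srebf1 rose by 0.71 ± 0.0587 on the log2 scale, from 49.4 ± 2.02 to 81.0 ± 1.09 CPM, and Srebf2 rose by 0.17 ± 0.0404. The ratio of Srebf2 to Srebf1 in CPM was 7.57, 6.98 and 7.35 in DMSO and 5.03, 4.92 and 5.04 in TGFb1 + DMSO. Stard4, a sterol carrier protein, rose by 0.65 ± 0.0578. Insig1, which retains the SREBPs and is itself one of their targets, fell by 0.54 ± 0.0472 (adjusted p = 1.65e-14), from 161, 168 and 164 CPM to 111, 108 and 120 CPM.

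With the TGFb1 group, for which the labels name no solvent, in place of TGFb1 + DMSO, 24 genes were higher and 2 lower. Over all genes 31.0% were called higher and 32.5% lower. There the falls of Mvk and Sc5d did not pass, at -0.12 ± 0.0867 and -0.03 ± 0.0527, while Pmvk rose by 0.46 ± 0.130. Between TGFb1 + DMSO and TGFb1 themselves, 4 of the 29 were lower with DMSO (Hmgcs1, Msmo1, Nsdhl and Scd1) and 0 higher, where 3.80% of all genes were called lower and 2.33% higher. At an unadjusted p under 0.05 edgeR had 17 lower and 1 higher, and DESeq2 and limma voom had 0 higher. These 4 differences ran from -0.20 to -0.13 on the log2 scale, and each lost its call without replicate 1 of TGFb1 or replicate 3 of TGFb1 + DMSO (-0.176 to -0.099). At 1 library of TGFb1 + DMSO (replicate 1) the median over the sterol enzymes stood at 0.57 above DMSO, against 0.35 and 0.38 in the other two, and without that library the rise of Hsd17b7 did not pass (0.24 ± 0.0661 with it, 0.138 without it).

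**Figure D2:**
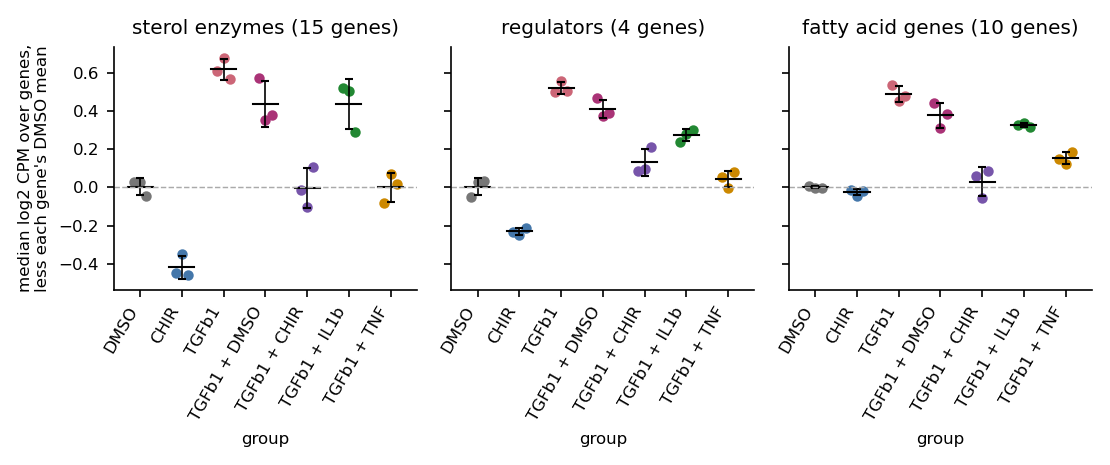
Median over the genes of each block of log2 CPM less each gene's DMSO mean (vertical axis), for each library (points) of the 7 groups (horizontal axis), with the group mean and SD (bars, n = 3). In CHIR the sterol enzymes lie between -0.46 and -0.35 and the fatty acid genes between -0.04 and -0.01.

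Cells given CHIR without TGFb1 had lower levels of the sterol enzymes. Of the 29 genes 18 were lower, 1 was higher and 10 did not pass, where 22.7% of all genes were called lower and 22.1% higher. The genes that fell were mostly in the sterol arm, where 13 of 15 fell with a median log2 fold change of -0.41, against -0.01 over all genes. Of the fatty acid genes 2 of 10 fell and 1 rose, with a median of -0.03. As a share of counts, the sterol enzymes went from 0.153% in DMSO to 0.114% in CHIR. The fatty acid genes went from 0.345% to 0.281%. Whether the arms differed was not tested.

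Tm7sf2 fell most, at 5.38, 5.37 and 5.11 CPM in DMSO and 2.01, 2.13 and 1.56 CPM in CHIR, a log2 fold change of -1.46 ± 0.218 at the lowest level of the set. Mvk stood at 27.1, 27.6 and 24.5 CPM in DMSO and at 11.9, 13.9 and 12.7 CPM in CHIR, 2.06-fold lower (log2 -1.04 ± 0.0917, adjusted p = 5.35e-14). Pmvk, the kinase that follows it, fell by 0.84 ± 0.142 and Nsdhl, which removes C4 methyl groups from sterols with Msmo1, by 0.80 ± 0.0603. The groups did not overlap for any of these 4 genes. Hmgcs1, the HMG-CoA synthase that opens the pathway, stood at 200.0, 209 and 206 CPM in DMSO and at 139, 145 and 135 CPM in CHIR. Ebp, the sterol isomerase, and Dhcr7 were the sterol enzymes that did not pass, at -0.09 ± 0.0656 and 0.02 ± 0.0714.

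Srebf1, Srebf2 and Stard4 each fell by 0.25 on the log2 scale, with standard errors of 0.0612, 0.0407 and 0.0600. Insig1 did not pass, at -0.01 ± 0.0468, with 161 to 168 CPM in DMSO and 158 to 167 CPM in CHIR. In the fatty acid arm Scd2 fell by 0.62 ± 0.0379, from 1045 ± 7.62 to 679 ± 22.7 CPM, and Scd1 by 0.26 ± 0.0407. Acaca was the gene that rose, by 0.17 ± 0.0619 (adjusted p = 0.0197). Without replicate 2 of CHIR or replicate 1 of DMSO the rise of Acaca did not pass (log2 0.141 and 0.157). Fasn, Elovl6, Fads2 and Acss2, an acetyl-CoA synthetase, lay between -0.02 and 0.03. CHIR had the lowest level of the 7 groups, apart from the libraries of the others, in 10 of 15 sterol enzymes. The same held for 3 of 4 regulators and 3 of 10 fatty acid genes. The share of all genes with this pattern was not computed. Mitochondrial transcripts were also highest in CHIR, at 1.04% ± 0.114 of counts against 0.572% ± 0.0166 in DMSO, and adipocyte markers summed to 0.790 ± 0.267 against 0.0384 ± 0.0407 CPM; their part in the result was not tested.

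CHIR in cells given TGFb1 reached all 29 genes. Against TGFb1 + DMSO, 26 fell and 3 rose, where 22.5% of all genes were called lower and 20.8% higher. The median log2 fold change was -0.50, against 0.00 over all genes. In the fatty acid arm 10 of 10 fell, all 4 regulators fell, and of the sterol enzymes 12 fell and 3 rose. These values and those of TGFb1 + DMSO against DMSO share the TGFb1 + DMSO libraries.

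The 3 that rose act on lanosterol or after it, but so do Tm7sf2, Msmo1, Nsdhl, Sc5d and Dhcr7, which fell. The count of 3 among 15 sterol enzymes was near the 20.8% of all genes called higher. Cyp51 stood at 406, 386 and 380 CPM in TGFb1 + DMSO and at 472, 475 and 509 CPM in TGFb1 + CHIR (log2 0.31 ± 0.0445, adjusted p = 5.24e-08). Hsd17b7, a sterol 3-keto reductase, stood at 85.6, 68.5 and 71.1 CPM and at 88.4, 87.3 and 104 CPM (log2 0.31 ± 0.0657, adjusted p = 8.90e-05). Ebp stood at 65.6, 60.3 and 61.2 CPM and at 70.1, 72.6 and 76.2 CPM (log2 0.23 ± 0.0638, adjusted p = 0.00296). For each of the 3 genes TGFb1 + CHIR was the highest of the 7 groups, and its libraries did not overlap with those of any other.

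The other sterol enzymes fell. Nsdhl stood at 133, 128 and 121 CPM in TGFb1 + DMSO and at 67.0, 63.8 and 75.1 CPM in TGFb1 + CHIR, 1.86-fold lower (log2 -0.89 ± 0.0581). Hmgcs1 stood at 346, 315 and 311 CPM and at 173, 185 and 180 CPM, 1.81-fold lower (log2 -0.85 ± 0.0462, adjusted p = 8.40e-22). Dhcr7 stood at 74.1, 69.4 and 67.4 CPM and at 38.8, 35.8 and 43.2 CPM, 1.79-fold lower (log2 -0.84 ± 0.0699). In all 3 the groups did not overlap, and the mean of Dhcr7 in TGFb1 + CHIR, 39.2 ± 3.73 CPM, was close to its 38.6 ± 4.35 CPM in DMSO. Tm7sf2 fell by 0.81 ± 0.204 on the log2 scale.

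In the fatty acid arm, Elovl6 fell most, from 60.1, 52.2 and 56.7 CPM to 31.6, 31.6 and 35.8 CPM (log2 -0.77 ± 0.0662, adjusted p = 2.06e-14). Scd1 fell by 0.74 ± 0.0404, Acss2 by 0.70 ± 0.0882 and Acly by 0.50 ± 0.0421. Scd2 fell less than Scd1, by 0.30 ± 0.0374, and its ratio to Scd1 in CPM went from 2.93 ± 0.0929 to 3.97 ± 0.0691 (SD, n = 3). That ratio was 2.17 ± 0.0312 in DMSO and 1.69 ± 0.0239 in CHIR, so CHIR was on the lower side of its control without TGFb1 and on the higher side with it. Insig1 fell by 0.52 ± 0.0491 to 76.9, 77.8 and 81.9 CPM, the lowest of the 7 groups. Srebf1 fell by 0.52 ± 0.0590, while the fall of Srebf2, by 0.10 ± 0.0405 with overlapping libraries (adjusted p = 0.0441), and that of Acaca, by 0.14 ± 0.0575 (adjusted p = 0.0370), were near the threshold. Leaving out any 1 of the 6 libraries but replicate 3 of TGFb1 + CHIR ended the call of Srebf2 (log2 -0.109 to -0.073). Leaving out replicate 2 or 3 of TGFb1 + CHIR or replicate 1 of TGFb1 + DMSO ended that of Acaca (-0.128, -0.124 and -0.082), and leaving out replicate 2 of TGFb1 + CHIR ended the fall of Fads1 (-0.096).

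The response to CHIR differed with TGFb1 for 18 of the 29 genes, by a test of the difference of both responses (TGFb1 + CHIR less TGFb1 + DMSO, less CHIR less DMSO). The difference was below 0 for 12 and above 0 for 6, where 20.3% of all genes were called below and 21% above. The count above 0 was thus near the share of all genes. Of the fatty acid genes 8 were below and 1 above, with a median of -0.34 against 0.03 over all genes. Of the sterol enzymes 4 were above, 2 were below and 9 did not pass. Dhcr7 had the lowest value, -0.86 ± 0.0999, with 0.02 without TGFb1 and -0.84 with it, followed by Elovl6 at -0.79 ± 0.0905. Of the genes that passed, Mvk had the highest, 0.51 ± 0.130, falling by 1.04 without TGFb1 and by 0.53 with it. Tm7sf2 lay higher at 0.65 ± 0.301 but did not pass (edgeR's adjusted p = 0.0803). The signs of the 2 responses differed for Cyp51, whose fall without TGFb1 was 0.13 ± 0.0456 (adjusted p = 0.0155), and for Hsd17b7, whose fall was 0.17 ± 0.0675 (adjusted p = 0.0324). Both falls were near the threshold: that of Cyp51 did not pass without replicate 1 of CHIR (-0.108) or replicate 3 of DMSO (-0.12), nor that of Hsd17b7 without replicate 1 or 3 of CHIR or replicate 1 or 2 of DMSO (-0.181 to -0.149).

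**Figure D3:**
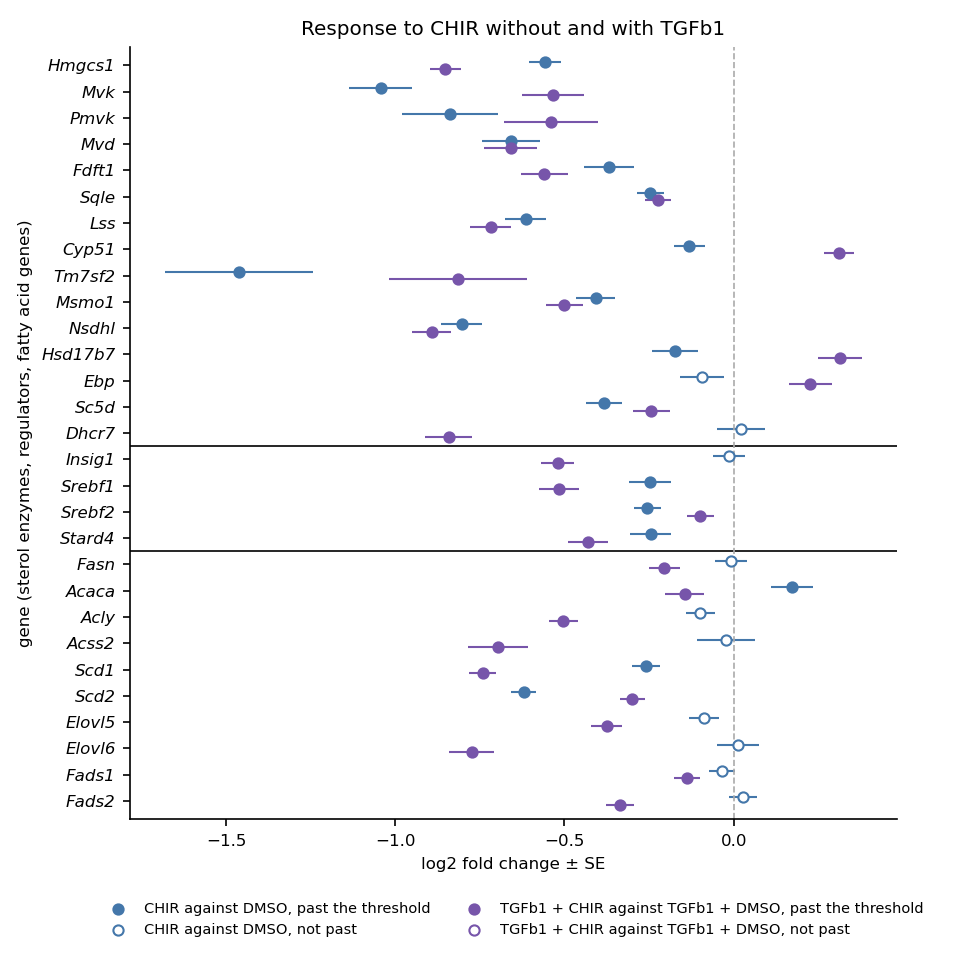
Log2 fold change with its SE (horizontal axis) of each gene (vertical axis) for CHIR against DMSO (blue) and for TGFb1 + CHIR against TGFb1 + DMSO (purple); filled points passed the threshold. Most fatty acid genes lie near 0 in blue and below 0 in purple, and Cyp51, Hsd17b7 and Ebp are the purple points above 0.

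In TGFb1-treated cells TNF lowered most of these genes, and most were higher with IL1b than with TNF. With TGFb1 + TNF against TGFb1, 22 of 29 fell, 0 rose and 7 did not pass, where 28.8% of all genes were called lower and 27.7% higher. At an unadjusted p under 0.05 edgeR also had 0 higher, as had DESeq2 and limma voom after adjustment. The median log2 fold change was -0.44, against 0.00 over all genes. With TGFb1 + IL1b against TGFb1, 13 fell, 2 rose and 14 did not pass, where 17.4% were called lower and 17.2% higher, with a median of -0.12. Both comparisons share the TGFb1 libraries.

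With TNF the sterol enzymes that fell were 12 of 15. Hsd17b7 stood at 81.2, 81.1 and 74.2 CPM in TGFb1 and at 33.4, 32.7 and 34.2 CPM in TGFb1 + TNF, 2.36-fold lower (log2 -1.24 ± 0.0696, adjusted p = 6.79e-21). Ebp stood at 68.1, 64.0 and 58.9 CPM and at 29.3, 30.5 and 31.3 CPM (log2 -1.07 ± 0.0671), and Hmgcs1 at 384, 349 and 347 CPM and at 158, 174 and 169 CPM (log2 -1.11 ± 0.0462). The libraries of both groups were far apart for these genes, and TGFb1 + TNF was the lowest of the 7 groups for Hsd17b7 and Ebp. Tm7sf2 fell by 1.26 ± 0.222 and Mvd by 1.03 ± 0.0790, from 48.9 ± 3.45 to 23.9 ± 2.10 CPM, which is near the 23.7 ± 1.99 CPM of DMSO. Msmo1 and Pmvk did not pass, at 0.11 ± 0.0540 and 0.02 ± 0.127, and nor did Dhcr7, at -0.15 ± 0.0673. Msmo1 stood at 261, 285 and 271 CPM, the highest mean of the 7 groups, where Nsdhl, its partner in the same step, fell by 0.63 ± 0.0564.

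In the fatty acid arm TNF took Scd2 from 4184, 4127 and 4303 CPM to 1976, 2080 and 2226 CPM, 2.01-fold lower (log2 -1.01 ± 0.0377, adjusted p = 7.74e-29). Scd1 fell alike, from 1536, 1437 and 1472 CPM to 726, 728 and 775 CPM, 1.99-fold lower. Both remained above the DMSO libraries, and their ratio in CPM was 2.84 ± 0.103 in TGFb1 and 2.82 ± 0.0816 in TGFb1 + TNF. Fasn and Acly each fell by 0.60, with standard errors of 0.0467 and 0.0420, while Acaca (-0.07 ± 0.0571), Acss2 (0.05 ± 0.0818) and Fads1 (0.01 ± 0.0388) did not pass. Of the regulators, Stard4 fell by 0.84 ± 0.0582 and Srebf1 by 0.45 ± 0.0578, Srebf2 fell by 0.13 ± 0.0404, and Insig1 did not pass (-0.08 ± 0.0479). With TGFb1 + DMSO as the control the fall of Srebf2 did not pass (-0.02 ± 0.0403), nor did those of Cyp51 (-0.031), Elovl6 (-0.108) and Fdft1 (0.036). Without replicate 1 of TGFb1 + TNF the fall of Cyp51 did not pass (-0.106), nor did that of Fdft1 without any 1 of the 6 libraries but replicate 2 of TGFb1 + TNF (-0.167 to -0.129). The summed fibroblast markers were also lowest in TGFb1 + TNF, at 23400 ± 545 CPM. They stood at 63700 ± 1270 CPM in TGFb1 and 59600 ± 872 CPM in TGFb1 + IL1b. Of these markers Dcn was higher in TGFb1 + TNF than in TGFb1, at 533 ± 4.99 against 224 ± 10.1 CPM, and the others were lower. The smooth muscle markers stood at 52.7 ± 5.31 CPM in TGFb1 + TNF, 212 ± 2.69 in TGFb1 and 144 ± 1.91 in TGFb1 + IL1b, and the mesothelial markers at 14.9 to 16.7, 24.8 to 29.2 and 27.2 to 28.3 CPM in the same groups. The part of these markers in the results was not tested.

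With IL1b, Hmgcs1 fell most, to 213, 217 and 217 CPM (log2 -0.74 ± 0.0456, adjusted p = 3.80e-19). Hsd17b7 fell by 0.57 ± 0.0671, Ebp by 0.53 ± 0.0651, Stard4 by 0.47 ± 0.0572, Fasn by 0.42 ± 0.0465, Scd1 by 0.38 ± 0.0401 and Acly by 0.35 ± 0.0418. Scd2 fell by 0.13 ± 0.0373, from 4205 ± 89.8 to 3855 ± 89.9 CPM. Acss2 rose, from 33.4, 29.9 and 26.0 CPM in TGFb1 to 44.4, 44.7 and 44.4 CPM (log2 0.57 ± 0.0802, adjusted p = 5.71e-08), and TGFb1 + IL1b was its highest group, apart from all others. Fads1 rose by 0.10 ± 0.0388 (adjusted p = 0.0299), a call that ended without any 1 of the 6 libraries but replicate 1 of TGFb1 (0.093 to 0.112). With TGFb1 + DMSO as the control the falls of Scd2 (-0.039), Sc5d (-0.009), Elovl6 (-0.141) and Nsdhl (0.015) did not pass. Without replicate 1 of TGFb1 + IL1b the fall of Scd2 did not pass either (-0.108). Nor did that of Nsdhl without replicate 1 of TGFb1 (-0.113), or that of Sc5d without replicate 1 or 2 of TGFb1 or replicate 2 or 3 of TGFb1 + IL1b (-0.13 to -0.122). Fdft1, the squalene synthase, Sqle, Lss, the lanosterol synthase, Cyp51, Msmo1 and Dhcr7 did not pass, with values from -0.06 to 0.05.

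The direct comparison of TGFb1 + IL1b with TGFb1 + TNF had 22 genes higher with IL1b, 0 lower and 7 not past, where 24.7% of all genes were called higher and 22.8% lower. The count of genes lower was also 0 at an unadjusted p under 0.05 with edgeR, and under DESeq2 and limma voom. The median log2 fold change was 0.28, against 0.01 over all genes. Tm7sf2 (1.14 ± 0.221), Scd2 (0.88 ± 0.0377), Mvd (0.74 ± 0.0791), Hsd17b7 (0.67 ± 0.0702), Scd1 (0.62 ± 0.0403), Ebp (0.54 ± 0.0678) and Acss2 (0.53 ± 0.0795) differed most. Elovl5 and Elovl6, both elongases, did not differ past the threshold, at -0.01 ± 0.0448 and -0.03 ± 0.0632. The calls of Dhcr7, Fads1 and Fdft1 in this comparison ended under DESeq2 and RLE factors, and also with single libraries left out. For Dhcr7 these were replicates 2 and 3 of TGFb1 + IL1b and replicates 1 and 2 of TGFb1 + TNF, for Fads1 all but replicate 3 of TGFb1 + TNF, and for Fdft1 all but replicate 2 of TGFb1 + TNF (log2 values between 0.067 and 0.179 over all settings that ended these calls).

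The labels do not say whether IL1b and TNF came with a solvent. With TGFb1 + DMSO as the control, 6 genes were higher and 10 lower with IL1b, where 19.6% of all genes were called higher and 19.8% lower. With TNF 3 were higher and 19 lower, where 27.8% were called higher and 29.2% lower. The median log2 fold change over the 29 genes was -0.01 with IL1b and -0.28 with TNF. With TGFb1 as the control these medians were -0.12 and -0.44. Against TGFb1 + DMSO, Pmvk rose with both (0.35 ± 0.128 with IL1b and 0.37 ± 0.128 with TNF), as did Msmo1 (0.25 ± 0.0541 and 0.31 ± 0.0541) and Acss2 (0.77 ± 0.0804 and 0.24 ± 0.0818). The falls of Hmgcs1, Hsd17b7, Ebp, Stard4, Fasn, Acly and Scd1 passed with either control.

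**Figure D4:**
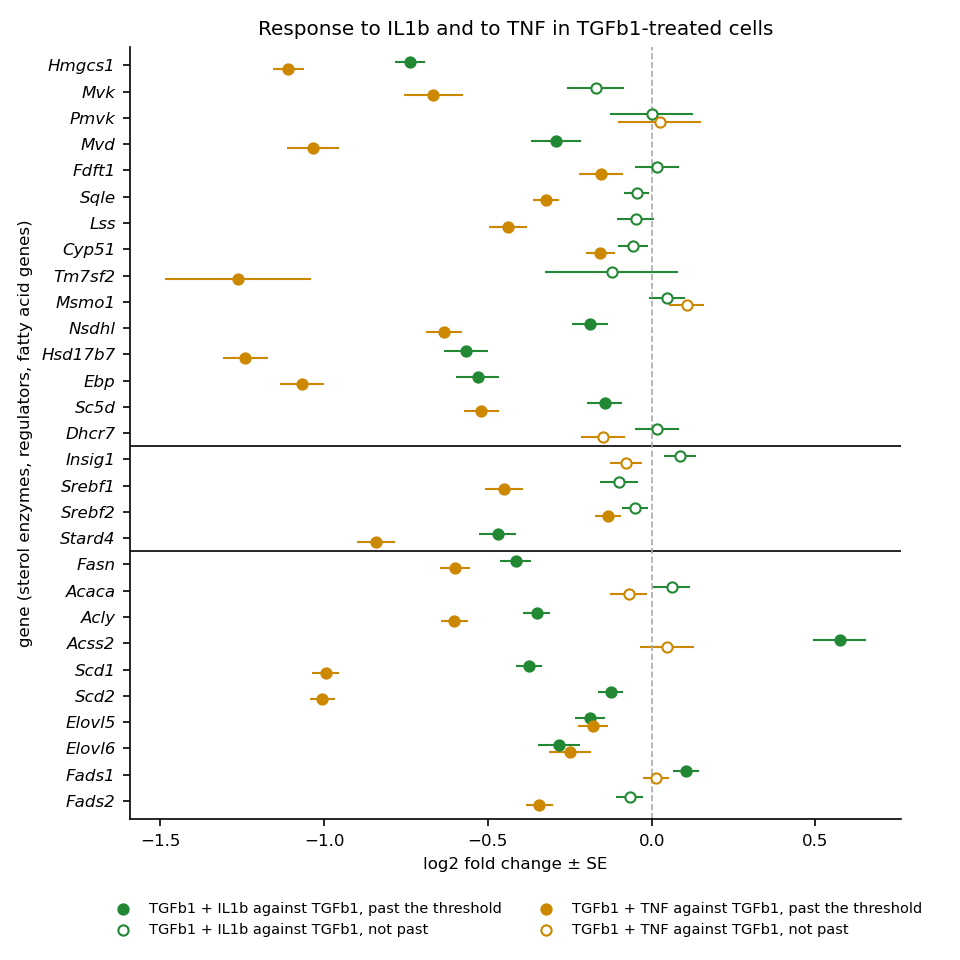
Log2 fold change with its SE (horizontal axis) of each gene (vertical axis) for TGFb1 + IL1b against TGFb1 (green) and TGFb1 + TNF against TGFb1 (orange); filled points passed the threshold. Orange points reach -1.26 (Tm7sf2) and -1.24 (Hsd17b7), and Acss2 is the highest green point, at 0.57.

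**Figure D5:**
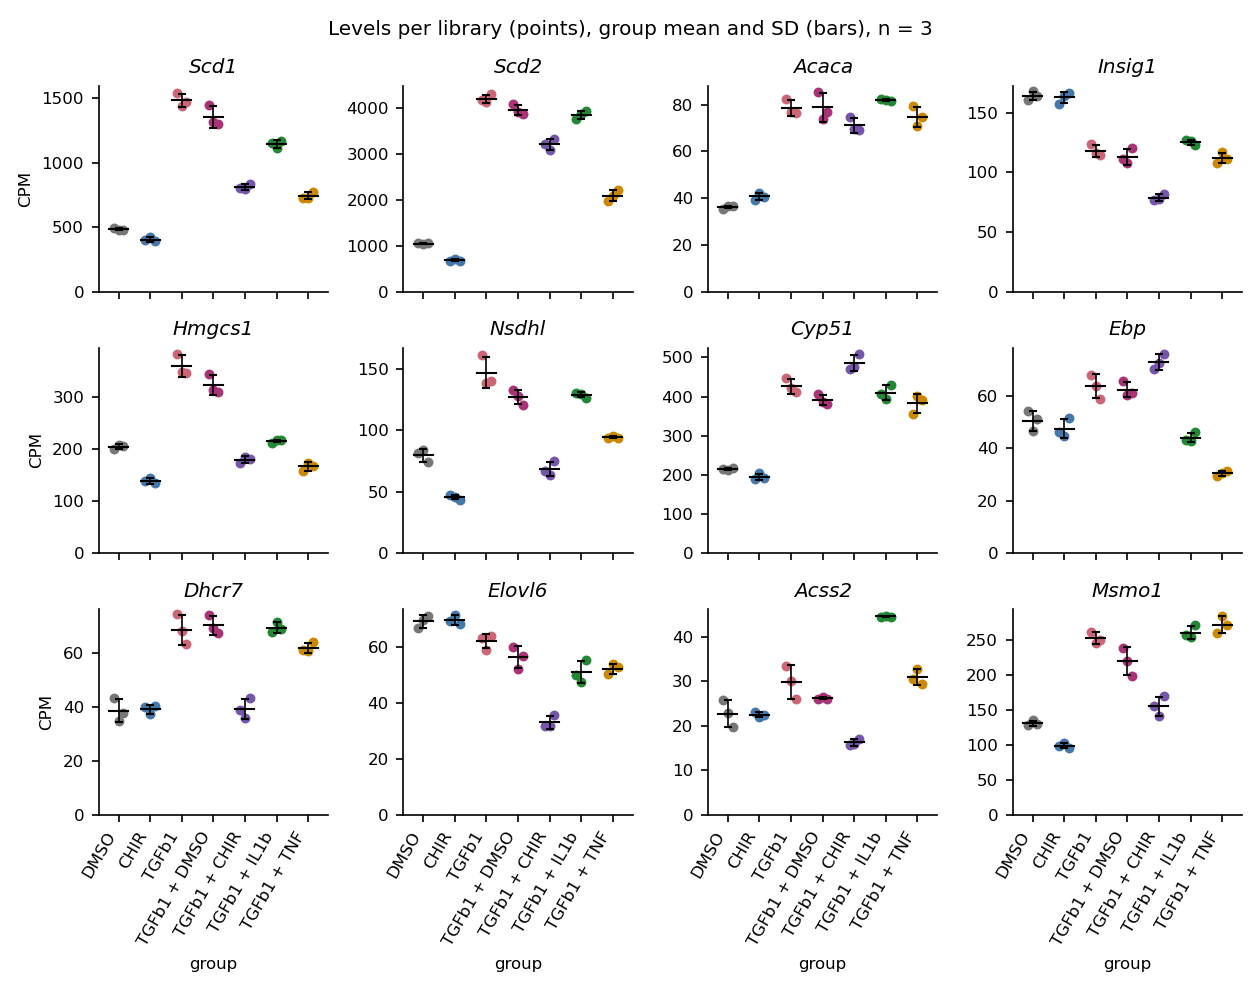
CPM (vertical axes, from 0) of 12 of the genes in each library (points) of the 7 groups (horizontal axis), with the group mean and SD (bars, n = 3). Cyp51 and Ebp are highest in TGFb1 + CHIR, whereas Insig1, Elovl6 and Acss2 are lowest there.

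Other genes of the pathway and of lipid handling were taken in lists chosen by name. Of 18 other SREBP pathway and target genes, 8 rose and 6 fell with TGFb1 + DMSO, with a median of 0.06, where 30.7% of all genes were called higher and 31.3% lower. Acat2, the cytosolic thiolase that feeds the sterol pathway, rose by 1.15 ± 0.0675 on the log2 scale, Acsl3, an acyl-CoA synthetase, by 1.04 ± 0.0565, and Tmem97, a sterol-regulated membrane protein, by 0.94 ± 0.154. With CHIR alone 4 of the 18 rose and 9 fell, and with CHIR on TGFb1 2 rose and 9 fell. Over all genes 22.1% were called higher and 22.7% lower with CHIR alone, and 20.8% and 22.5% with CHIR on TGFb1, so the counts that rose were near or below the share of all genes.

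Of the 18, Lpin1, a phosphatidic acid phosphatase of glycerolipid synthesis, had the largest difference between the responses to CHIR. It stood at 49.1, 52.9 and 52.8 CPM in DMSO and at 96.8, 99.4 and 106 CPM in CHIR, and at 32.5, 28.5 and 28.7 CPM in TGFb1 + DMSO and 5.82, 8.20 and 6.92 CPM in TGFb1 + CHIR. CHIR thus raised it 1.95-fold without TGFb1 and lowered it 4.32-fold with TGFb1, a difference of -3.07 ± 0.117 (adjusted p = 8.22e-28). Mbtps1, a protease that releases the SREBPs, also rose with CHIR alone, by 0.46 ± 0.0400, and fell with CHIR on TGFb1, by 0.51 ± 0.0410.

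Among 14 genes of cholesterol storage, transport and efflux, 9 fell and 3 rose with TGFb1 + DMSO, with a median of -0.45, where 31.3% of all genes were called lower and 30.7% higher. Abca1, the cholesterol efflux pump, stood at 329 ± 4.09 CPM in DMSO, 122 ± 6.94 in TGFb1 + DMSO, 104 ± 8.56 in TGFb1 and 31.6 ± 1.54 in TGFb1 + TNF. Its log2 fold changes were -1.43 ± 0.0487 with TGFb1 + DMSO and -1.71 ± 0.0547 with TNF on TGFb1, while CHIR on TGFb1 raised it by 0.65 ± 0.0489. Ch25h, which makes 25-hydroxycholesterol, a suppressor of SREBP processing, fell by 1.73 ± 0.114 with TGFb1 + DMSO and rose by 1.96 ± 0.112 with IL1b and by 1.90 ± 0.112 with TNF, to 32.2 ± 4.37 and 30.9 ± 1.73 CPM. Of the 14 genes, 4 rose and 2 fell with IL1b (17.2% and 17.4% of all genes), and 5 rose and 3 fell with TNF (27.7% and 28.8% of all genes).

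Of 12 fatty acid oxidation genes, 8 fell and 0 rose with TNF on TGFb1, with a median of -0.23, where 28.8% of all genes were called lower and 27.7% higher. Cpt1a, which carries long-chain fatty acids into mitochondria, fell from 84.9, 82.9 and 90.5 CPM to 15.8, 13.9 and 14.7 CPM, 5.81-fold lower (log2 -2.54 ± 0.0618, adjusted p = 5.89e-37). With IL1b 2 of the 12 fell, among them Cpt1a by 0.50 ± 0.0534, and 0 rose, where 17.4% of all genes were called lower and 17.2% higher, so the count that fell was near the share of all genes. In both comparisons the count that rose was also 0 at an unadjusted p under 0.05 with edgeR, and under DESeq2 and limma voom. Of 11 lipid droplet and adipogenic genes tested, 8 fell and 2 rose with TGFb1 + DMSO, where 31.3% of all genes were called lower and 30.7% higher. Lpl, the lipoprotein lipase, fell by 2.41 ± 0.0503, from 622 ± 4.83 to 117 ± 3.52 CPM. Pparg, the adipogenic nuclear receptor, rose by 0.55 ± 0.106 with CHIR alone and fell by 1.45 ± 0.123 with CHIR on TGFb1, by 0.85 ± 0.115 with IL1b and by 1.73 ± 0.124 with TNF. Dgat2, which makes triglyceride, rose by 1.79 ± 0.135 with IL1b and by 1.44 ± 0.137 with TNF. Of 12 genes of the isoprenoid branch and ubiquinone synthesis, 8 rose and 1 fell with TGFb1 + DMSO, led by Coq3 (1.32 ± 0.116), where 30.7% of all genes were called higher and 31.3% lower.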

How the data were processed

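RNA of 21 libraries (7 groups of 3) was extracted with a Qiagen RNeasy kit and prepared with the Illumina TruSeq Stranded Total RNA kit, per the labels' protocols. The authors deposited raw counts per Ensembl gene in 1 table and in 21 tables of single libraries, which held the same values. The sources used here do not give the aligner, counter, strand setting or annotation, and the submitters' processing notes name GRCm38 and GRCh38 without a role. Names, exon lengths and shared sequence came from GENCODE (52489 of 52636 identifiers matched), and promoters from RefSeq. The 147 rows without a name held 0.00736% of counts.

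Counts were tested in R 4.3.3 with edgeR 4.0.16 (TMM, filterByExpr, robust quasi-likelihood F-test, 1 fit over all libraries, Benjamini-Hochberg over 16197 genes, threshold 0.05). The scripts were tested on simulated data. Between libraries of 1 group, counts of genes with a mean of at least 20 differed by 3.19 to 9.69 times the sampling variance, so none was a repeat deposit. Log2 CPM used a prior count of 2. Alternatives were DESeq2 1.42.0, limma voom (limma 3.58.1), RLE factors, no filter, a filter of 1 CPM in 3 libraries, only the groups compared, other control groups, and leaving out each library. The 29 genes, the other gene lists and the tests were chosen with earlier results of these data known. All 29 are named; values go to up to 4 with the highest and up to 4 with the lowest log2 fold change past the threshold per arm, those past it against the sign of their arm's median, and, per other list, up to 3 with the largest change at a mean of at least 2 log2 CPM. Other genes given values were chosen after their values were seen.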

Additional observations from a re-analysis of the deposited data

Results flagged for a closer look

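The response to CHIR differed with and without TGFb1 for 18 of the 29 genes. Each value is the log2 response to CHIR in TGFb1-treated cells less that without TGFb1, with edgeR's adjusted p under 0.05 for this difference. Among the sterol enzymes the values were -0.86 for Dhcr7 and -0.30 for Hmgcs1, which are below 0, and 0.51 for Mvk, 0.49 for Hsd17b7, 0.44 for Cyp51 and 0.32 for Ebp, which are above 0. Among the regulators they were -0.51 for Insig1, -0.27 for Srebf1 and 0.16 for Srebf2. Among the fatty acid genes 8 lay below 0: -0.79 for Elovl6, -0.67 for Acss2, -0.48 for Scd1, -0.40 for Acly, -0.36 for Fads2, -0.32 for Acaca, -0.29 for Elovl5 and -0.20 for Fasn. Scd2 was the fatty acid gene above 0, at 0.32. The values of Srebf2 and Fasn did not pass without some single libraries: for Srebf2 replicate 3 of DMSO, replicate 3 of TGFb1 + CHIR or replicates 2 or 3 of TGFb1 + DMSO (0.115 to 0.148), and for Fasn replicate 2 of DMSO or replicate 1 of TGFb1 + DMSO (-0.167 and -0.148).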

How the results depend on the processing

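Of 3045 values of single members over the alternatives, 2886 kept their direction and their side of the threshold, 109 lost the call, 47 gained one and 3 changed sign. A further 60 values that passed under neither setting changed sign. With TGFb1 + DMSO as the control, Pmvk was at 0.348 with IL1b (called), Nsdhl at 0.015 with IL1b and Fdft1 at 0.036 with TNF, against values next to 0 (Pmvk, not called), of -0.19 (Nsdhl, called) and of -0.15 (Fdft1, called) with TGFb1 as the control. The cause was not tested. The number of members called between TGFb1 + DMSO and TGFb1 was 4, against 9 with DESeq2, 8 with limma voom and 1 to 6 with 1 library left out. Fatty acid genes higher in CHIR than in DMSO numbered 1, and 0 to 1 with 1 library left out, since the call of Acaca ended without replicate 2 of CHIR or replicate 1 of DMSO. The counts of members called in the other 7 comparisons stayed within 1.5 times under every alternative run. No paired analysis was possible because replicate numbers follow the order of the samples and pair nothing. By arm, the sterol enzymes lower with TGFb1 + DMSO than with DMSO numbered 2, against 1 without a filter on low counts, 0 with TGFb1 in place of TGFb1 + DMSO, and 0 to 1 with 1 library left out. Depth limits Tm7sf2 most, which had 28 counts in its lowest library of TGFb1 + TNF.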
